A study of Homo sapiens with 16 samples.

Results

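Target genes of p53 were read in H1299, a cell line from human lung cancer, after knockdown of YEATS2, a subunit of the ATAC histone acetyltransferase complex. The members were chosen by name as known p53 targets, namely MDM2, CDKN1A, SESN1, BTG2, GDF15, TP53INP1, BBC3, FAS, ZMAT3 and RRM2B, and the rule uses no measured value. Earlier results of these data were known when they were chosen, so the choice was not blind to the data. Of these 10 genes, 9 have a row in the count table of 12676 genes, and BTG2, an antiproliferative gene, was not analysed here. The table lists genes with at least 101 reads in some library, and GDF15 reached that level only in shYEATS2 cells, so it could be listed only if it differed. RNA-seq was performed on 4 libraries, with 2 of cells infected with a lentivirus carrying a non-targeting shRNA (shNT, titled shCtrl in the labels) and 2 of cells infected with one carrying an shRNA against YEATS2 (shYEATS2). All cells were exposed to polybrene at 8 µg/ml with the virus and, after 48 h, to puromycin at 2 µg/ml for 4 to 7 days according to the labels, while the study's methods give a shorter selection, so the control cells had also been infected and selected. The labels do not name the shRNA, which the study's text gives as shY2-1. With 1 hairpin in these libraries, an effect of its own cannot be told apart from the knockdown here. The study also reports RNA-seq with another, weaker hairpin and rescue by shRNA-resistant YEATS2, neither of which is in the libraries read here. The study calls its replicates biological, but neither it nor the labels say whether they were infected separately, so the tests measure the spread between these libraries only.

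The transcription factor p53 is stabilized by DNA damage and other stress and binds a pair of adjacent half-sites in its target genes. Its targets stop the cell cycle, promote cell death, repair DNA, restrain growth and, through MDM2, remove p53 itself. H1299 is known to make no p53 protein, which the counts do not test, so these targets are thought to lack their main activator in it. Many of them also answer to other factors, such as the p53 relatives p63 and p73 or the factors of the integrated stress response.

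Sequences that match the p53 consensus, 2 half-sites of 10 bases with no spacer, were searched for within 3 kb on either side of the canonical transcript start, because they show what the members share in sequence. The central 4 bases of each half-site had to be intact, and at most 2 mismatches were allowed in the rest of the 20 bases. The motif is its own reverse complement, so a single scan covers both strands. A match was found for 5 of the 9 members (CDKN1A, FAS, GDF15, RRM2B and ZMAT3) and for 2.85% of the 12465 windows of table genes with a GRCh37 annotation. The sites of 4 members are shown in GRCh37 (hg19), on the strand of the gene, with the central bases of each half-site in capitals:
ZMAT3: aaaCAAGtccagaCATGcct
CDKN1A: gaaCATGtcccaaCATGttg
FAS: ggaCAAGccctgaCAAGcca
GDF15: catCTTGcccagaCTTGtct

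The ZMAT3 site, at chr3:178787976-178787995 on the minus strand, had 0 mismatches and lay 1.61 kb after the start, in no annotated exon of the gene. The CDKN1A site, at chr6:36644226-36644245 on the plus strand, lay 2.26 kb before the canonical start and touched an exon of another annotated transcript. The FAS site, at chr10:90751066-90751085 on the plus strand, lay 0.661 kb after the gene start, which stood in for the canonical start that the annotation does not mark, and it also overlapped an annotated exon. The GDF15 site, at chr19:18496118-18496137 on the plus strand, lay 0.841 kb before the canonical start. The match of RRM2B, with 1 mismatch, lay 2.11 kb after the start. No match was found in the windows of MDM2, SESN1, BBC3 and TP53INP1, which says only that these letters are not in those windows.

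YEATS2 itself had 4482 and 4104 scaled reads in shNT against 665 and 673 in shYEATS2 cells, a log2 fold change of -2.68 ± 0.10 (SE). Scaled reads are counts corrected for library size and composition by the TMM method of edgeR and set to the mean size of the 4 libraries, and all fold changes below are of shYEATS2 over shNT on that scale. The listed genes received between 34718921 and 39417787 reads per library. A gene was called when its false discovery rate (FDR) was under 0.01 in the quasi-likelihood test of edgeR, adjusted by Benjamini-Hochberg over all 12676 genes. Of the line's markers, VIM, KRT8 and KRT18 were present with at least 7983 scaled reads in every library, and KRT19, EPCAM and CDH1 had no row. None of the 6 markers of leukocytes, endothelium, fibroblasts and muscle had a row either. Levels in a bulk library do not tell fewer expressing cells from less RNA per cell.

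The p53 targets did not move together. Of the 9 members, 3 rose (GDF15, BBC3 and SESN1), none fell and 6 were not called, against 12.9% of all genes called higher and 12.5% called lower. At an FDR under 0.05, 3 members were higher and 3 lower, against 24.4% and 23.8% of all genes. At an unadjusted p under 0.05, 4 members were higher and 3 lower in the same edgeR test, against 28.7% and 27.8%. DESeq2 called 1 member lower (MDM2), against 17.3% of all genes. With the replicate number as a block, 4 members were called higher and 3 lower, against 2742 and 2715 of all genes. The labels do not say that a replicate number marks a shared batch. The median log2 fold change of the 9 genes was 0.26, against -0.0019 over all genes tested, and the count and the median include GDF15, whose listing rests on the knockdown libraries. With scaling by total counts, which shifted the median of all genes by 0.12, the median of the members was 0.38 and no member changed sign.

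**Figure D1:**
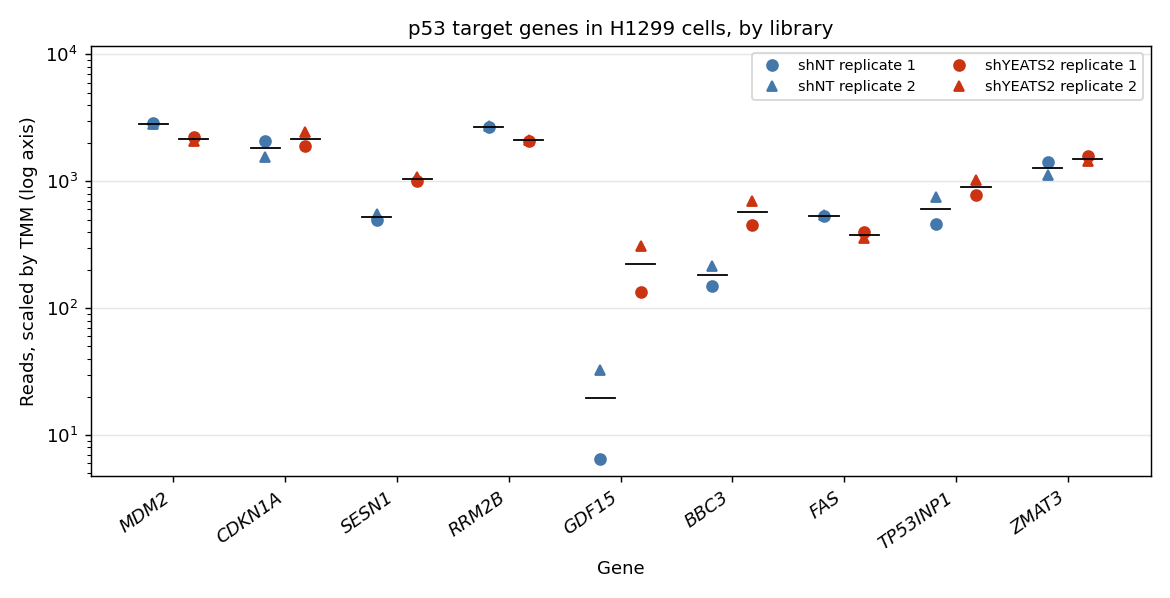
Scaled reads of the 9 p53 target genes (horizontal axis) on a log axis, with blue symbols for shNT and red symbols for shYEATS2 libraries, circles for replicate 1, triangles for replicate 2 and black bars for group means. GDF15, BBC3 and SESN1 are clearly higher in both shYEATS2 libraries, MDM2, RRM2B and FAS are slightly lower in both, and the CDKN1A libraries overlap.

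GDF15 (ENSG00000130513, chr19:18485541-18499986, plus strand, GRCh37) encodes a secreted stress cytokine of the TGF-beta superfamily. It had 6 and 30 raw reads in shNT against 137 and 349 in shYEATS2 cells, or 6.46, 32.5, 135 and 309 scaled reads. Both knockdown libraries lay above both controls, but replicate 2 exceeded replicate 1 by 5.04-fold within shNT and by 2.29-fold within shYEATS2. This was a log2 fold change of 3.51 ± 0.64 (SE, FDR 0.00571), or 11.4-fold with a 95% interval from 3.95 to 32.6. Because its row required a high level in the knockdown libraries, this test is not independent of the listing. Without shYEATS2 replicate 2 the value was 2.78 with an FDR of 0.0118, so the call was lost, and without shNT replicate 2, which left 6 control reads, the value was 5.08.

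BBC3 (ENSG00000105327, chr19:47724079-47736023, minus strand) encodes PUMA, a BH3-only protein that triggers mitochondrial apoptosis. Its scaled reads were 151 and 215 in shNT against 456 and 700 in shYEATS2 cells. The groups did not overlap, and the library with most reads was again shYEATS2 replicate 2. This gave a log2 fold change of 1.66 ± 0.26 (SE, FDR 0.00344), a 3.17-fold rise with a 95% interval from 2.07 to 4.85. BBC3 was called with each library left out in turn, with values from 1.32 to 1.94.

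The other members with a role in cell death were not called, and they pointed in different directions. FAS (ENSG00000026103, chr10:90750414-90775542, plus strand), a death receptor on the cell surface, had 529 and 541 scaled reads in shNT against 402 and 355 in shYEATS2 cells. Both knockdown libraries lay below both controls, with a log2 fold change of -0.50 ± 0.13 (SE, FDR 0.0189). FAS shares 380 exon bases with ACTA2 on the opposite strand, whose level of 166 to 170 scaled reads differed little between the libraries, and 917 with a long noncoding RNA on that strand that has no row. TP53INP1 (ENSG00000164938, minus strand), a nuclear protein that promotes cell cycle arrest, cell death and autophagy, had 462 and 746 scaled reads in shNT against 778 and 1030 in shYEATS2 cells. TP53INP1 shares 225 exon bases with NDUFAF6 on the opposite strand. The groups just failed to overlap, since shNT replicate 2 was close to shYEATS2 replicate 1. TP53INP1 had a log2 fold change of 0.58 ± 0.24 (SE, FDR 0.0836). The value was 0.97 with an FDR of 0.00967 without shNT replicate 2, and 0.27 with an FDR of 0.353 without shNT replicate 1.

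SESN1 and RRM2B serve stress responses outside of cell death. SESN1 (ENSG00000080546, chr6:109305512-109416049, minus strand) encodes a sestrin, which restrains the growth kinase mTORC1 and limits oxidative damage. Its scaled reads were 497 and 550 in shNT against 1008 and 1081 in shYEATS2 cells, with close replicates in both groups. SESN1 shares 363 exon bases with a long noncoding RNA on the opposite strand that has no row. SESN1 had a log2 fold change of 1.00 ± 0.12 (SE, FDR 0.00155), or 2.00-fold with a 95% interval from 1.65 to 2.42, and was called with each library left out. RRM2B (ENSG00000048392, minus strand) encodes the p53-inducible small subunit of ribonucleotide reductase, which supplies nucleotides for DNA repair. It had 2677 and 2715 scaled reads in shNT against 2063 and 2136 in shYEATS2 cells, a log2 fold change of -0.36 ± 0.09 (SE, FDR 0.0171). Its knockdown libraries lay below both controls without overlap, but it did not pass the threshold.

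CDKN1A (ENSG00000124762, chr6:36644237-36655114, plus strand) encodes p21, the inhibitor of cyclin-dependent kinases that carries out the arrest by p53. Its scaled reads were 2086 and 1558 in shNT against 1894 and 2433 in shYEATS2 cells. It was the only one of the 9 members whose groups overlapped, and shNT replicate 1 lay above shYEATS2 replicate 1. CDKN1A shares 146 exon bases with the noncoding RNA DINOL on the opposite strand, which has no row. CDKN1A had a log2 fold change of 0.25 ± 0.17 (SE, FDR 0.271), with a 95% interval from -0.17 to 0.66. A rise of up to 1.58-fold therefore lies within the interval. The value was 0.05 without shNT replicate 2 and 0.47 without shNT replicate 1. Among genes outside the lists with a mean of at least 100 scaled reads, EGLN1, GLA and ZNF79 had the profiles closest to CDKN1A over the 4 libraries, with Euclidean distances of 0.0732, 0.112 and 0.126 between log2 levels centred on each gene's mean.

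MDM2 (ENSG00000135679, chr12:69201957-69239324, plus strand) encodes the ubiquitin ligase that degrades p53 and is its main feedback target. It had 2867 and 2819 scaled reads in shNT against 2224 and 2092 in shYEATS2 cells. The replicates were close and the groups did not overlap, yet the difference was small, with a log2 fold change of -0.40 ± 0.09 (SE, FDR 0.0133). MDM2 shares 133 exon bases with CPM on the opposite strand, whose log2 fold change was -0.32 (FDR 0.220), and 785 with a long noncoding RNA on that strand and 439 with a processed pseudogene on its own, neither of which has a row in the table. ZMAT3 (ENSG00000172667, chr3:178677909-178790003, minus strand), an RNA-binding zinc finger protein that affects splicing and mRNA stability, had 1417 and 1114 scaled reads in shNT against 1583 and 1441 in shYEATS2 cells. Its highest control was close to its lowest knockdown library, with a log2 fold change of 0.26 ± 0.14 (SE, FDR 0.161).

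Groups did not overlap for 8 of the 9 members, 5 with higher and 3 with lower knockdown libraries, while 79.6% of all genes had groups that did not overlap (39.7% higher and 39.8% lower). MDM2, FAS and RRM2B, the 3 members with lower knockdown libraries, had FDR values from 0.0133 to 0.0189. All 3 passed 0.01 with the exact test of edgeR after TMM scaling, the test that the study's methods name, where 19.7% of all genes were called lower. None did with either test on total counts, where their log2 fold changes were -0.28, -0.38 and -0.24. The direction of these genes was the same on both scales, whereas the call changed between these fits.

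**Figure D2:**
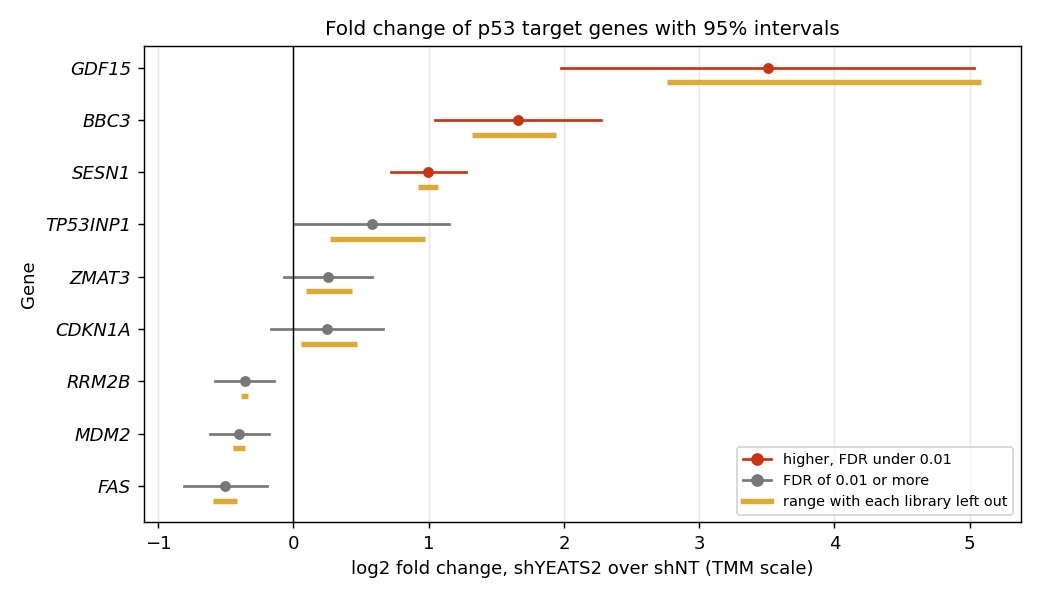
Log2 fold change of shYEATS2 over shNT for the 9 p53 target genes, with 95% intervals from the quasi-likelihood fit (thin lines) and the range of values with each library left out in turn (yellow bars). GDF15, BBC3 and SESN1 lie at 3.51, 1.66 and 1.00, and the 3 lowest genes lie between -0.50 and -0.36.

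Levels can be compared between genes only per length, here as reads per kb of annotated exon per 1000000 scaled reads. In the shNT libraries the order was CDKN1A (16.7 ± 3.42, SD, n = 2), RRM2B (13.7 ± 0.138), MDM2 (9.40 ± 0.112), FAS (4.13 ± 0.0651), ZMAT3 (3.08 ± 0.521), TP53INP1 (2.94 ± 0.980), SESN1 (1.98 ± 0.141), BBC3 (1.57 ± 0.391) and GDF15 (0.257 ± 0.243). ZMAT3 and TP53INP1 were the only neighbours in this order whose libraries overlapped. In the shYEATS2 libraries CDKN1A (19.8 ± 3.49), RRM2B (10.7 ± 0.261) and MDM2 (7.13 ± 0.308) kept the first places and were followed by BBC3 (4.98 ± 1.49), TP53INP1 (4.40 ± 0.866), SESN1 (3.94 ± 0.195), ZMAT3 (3.67 ± 0.244), FAS (2.91 ± 0.258) and GDF15 (2.91 ± 1.62). BBC3 thus moved from the eighth place to the fourth, although its libraries overlapped those of TP53INP1, and TP53INP1 and SESN1 each overlapped the next gene as well, as FAS did with GDF15. CDKN1A and MDM2, the classical readouts of p53 activity, were among the 3 most abundant members in both groups. Lengths are those of the union of all annotated exons, which lowers the level of genes with many long transcripts.

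Of the p53 relatives, TP73 fell and TP63 was not analysed here. TP73 encodes a factor that can bind many p53 sites. It had 337 and 392 scaled reads in shNT against 157 and 165 in shYEATS2 cells, a log2 fold change of -1.17 ± 0.16 (SE, FDR 0.00232). TP73 shares 633 exon bases with TP73-AS1 on the opposite strand, whose log2 fold change was -0.03. MDM4, the partner of MDM2 in restraining p53, had 498 and 498 scaled reads in shNT against 577 and 502 in shYEATS2 cells (FDR 0.481). Of the list of 22 genes of the p53 family and its regulators, 21 were tested, 2 rose and 4 fell (28.6% called, against 25.3% of all genes), and their median log2 fold change was 0.00028. CDKN2A, whose products include the MDM2 inhibitor ARF, rose by 0.61 on the log2 scale (FDR 0.00284), and PPP1R13B, which encodes the p53 cofactor ASPP1, rose by 0.48 (FDR 0.00653). SIRT1, a deacetylase of p53, fell by 1.21 (FDR 0.00118), CHEK1, a checkpoint kinase, fell by 1.13 (FDR 0.00498), and DAXX, a histone chaperone that binds MDM2, fell by 0.49 (FDR 0.00961). Without shNT replicate 1 and without shNT replicate 2 no gene of the list was called higher, and without shYEATS2 replicate 2 there was 1 such call. The number called lower was 2 without shNT replicate 2. Calls over all genes also fell in these fits, from 1630 higher to 775, 882 and 992, and from 1581 lower to 919.

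Other factors known to act on some of the members were also measured, and 5 of 14 were called, 4 higher and 1 lower (35.7%, against 25.3% of all genes). DDIT3, which encodes CHOP of the integrated stress response, rose from 594 and 1130 to 2785 and 4844 scaled reads, with a log2 fold change of 2.15 ± 0.35 (SE, FDR 0.00402). ATF3, another factor of that response, rose by 1.30 on the log2 scale (FDR 0.00542), EGR1, an immediate-early factor, by 0.91 (FDR 0.00157), and FOXO3, a forkhead factor, by 0.50 (FDR 0.00687). KLF6, a zinc finger factor, fell by 0.79 (FDR 0.00164). Among the rest, ATF4, FOXO1, KLF4, SMAD3, MYC, NFKB1, RELA and SP1 were not called. FOXO1 reached 101 reads only in shNT cells, so its listing rests on those libraries. Of the called factors, DDIT3, ATF3 and FOXO3 had more scaled reads in replicate 2 than in replicate 1 in both groups. That order also held for GDF15, BBC3, TP53INP1, SESN1 and RRM2B, and not for the other members. Of the factors not called, ATF4 and KLF4 had this order too, and the others did not. Over all genes, same-numbered libraries deviated from their group means together (r = 0.40), and the share of genes with this order was not counted. The part of the factors in the levels of the members was not tested.

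**Figure D3:**
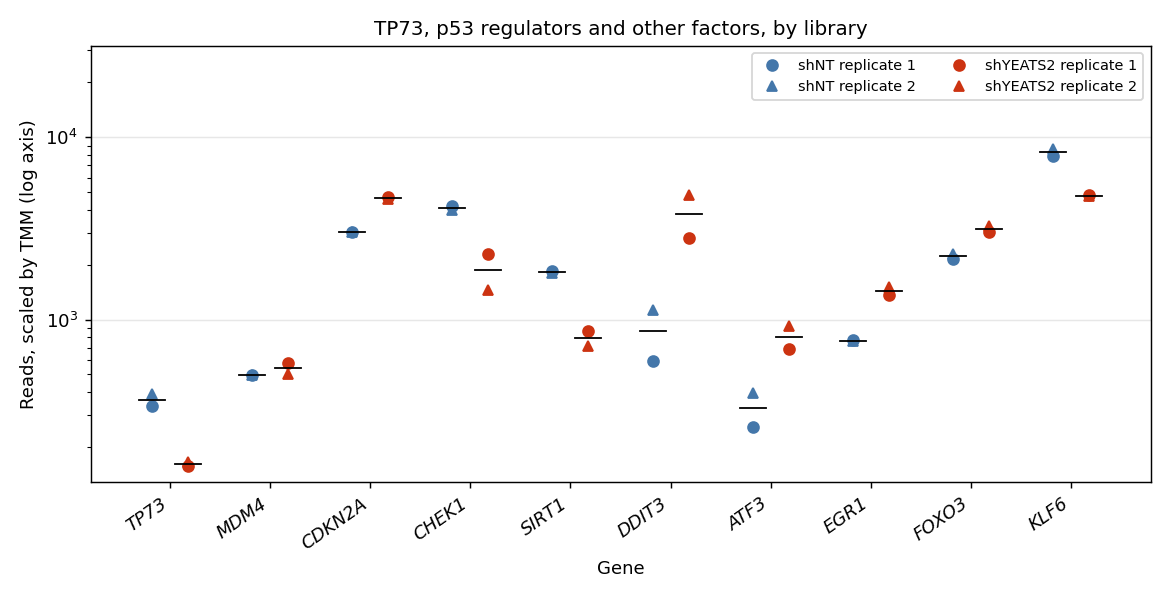
Scaled reads on a log axis for TP73, MDM4 and called genes among regulators of p53 and other factors (horizontal axis), with symbols as in the plot of the 9 target genes and black bars for group means. TP73, CHEK1, SIRT1 and KLF6 are lower and CDKN2A, DDIT3, ATF3, EGR1 and FOXO3 higher in both shYEATS2 libraries, while MDM4 differs little between the groups.

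A wider list of 42 other p53 targets was compared with the members, and 38 of them were tested. Of these, 7 rose, 8 fell and 23 were not called, so 39.5% were called against 25.3% of all genes, and the median log2 fold change was 0.03. TRIM22, which was not called (FDR 0.0236), reached 101 reads only in shYEATS2 cells, so its listing and its part in the median rest on those libraries. With total counts 11 of the list rose and 5 fell. Calls over all genes also moved with that scaling, from 1630 to 2363 higher and from 1581 to 1166 lower. On the TMM scale the largest rises of the list were in SESN2 (log2 fold change 1.79, from 1005 and 1852 to 4225 and 5638 scaled reads), a second sestrin, and in TNFRSF10D (1.58), a decoy receptor for the death ligand TRAIL. ABHD4 (1.24), GADD45A (0.93) and BLOC1S2 (0.66) followed, of which GADD45A acts in growth arrest and DNA repair. All 5 had FDR values from 0.000793 to 0.00439. The largest falls were in PERP (-1.63), a membrane protein of cell adhesion and apoptosis, PMAIP1 (-1.34), which encodes the BH3-only protein NOXA, and TGFA (-1.22), a ligand of the EGF receptor. DDB2 (-0.82), which recognizes ultraviolet damage, and POLH (-0.76), a polymerase that copies past it, followed, and these 5 had FDR values from 0.000975 to 0.00343. A p53 consensus match was found for 10 of the 38 windows (26.3%), among them PMAIP1, GADD45A and PLK2.

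Values of some genes with related roles are given side by side; they were chosen after their values were seen, and no test compares them. BBC3 rose, whereas PMAIP1, which encodes another BH3-only protein, fell from 688 and 843 to 317 and 287 scaled reads, and BAX, the apoptosis effector that such proteins activate, fell by 0.52 (FDR 0.00609). Of the receptors for death ligands, TNFRSF10B rose by 0.55 on the log2 scale (FDR 0.00630) and TNFRSF10D by 1.58, TNFRSF10C (0.92, FDR 0.0135) and TNFRSF10A (0.29, FDR 0.162) were not called, and FAS had a log2 fold change of -0.50 without a call. SESN1 and SESN2 rose. Of the genes with a role in DNA repair, DDB2, POLH and XPC (-0.68, FDR 0.00642) fell, whereas GADD45A rose (0.93, FDR 0.0013) and RRM2B was not called. In the wider list the number called higher was 4 without shYEATS2 replicate 2. The number called lower was 4 without shNT replicate 1, 4 without shNT replicate 2 and 5 without shYEATS2 replicate 2. Over all genes the calls fell as well, to 992 higher without shYEATS2 replicate 2 and to 850, 919 and 1058 lower in the same 3 fits, from 1630 and 1581.

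**Figure D4:**
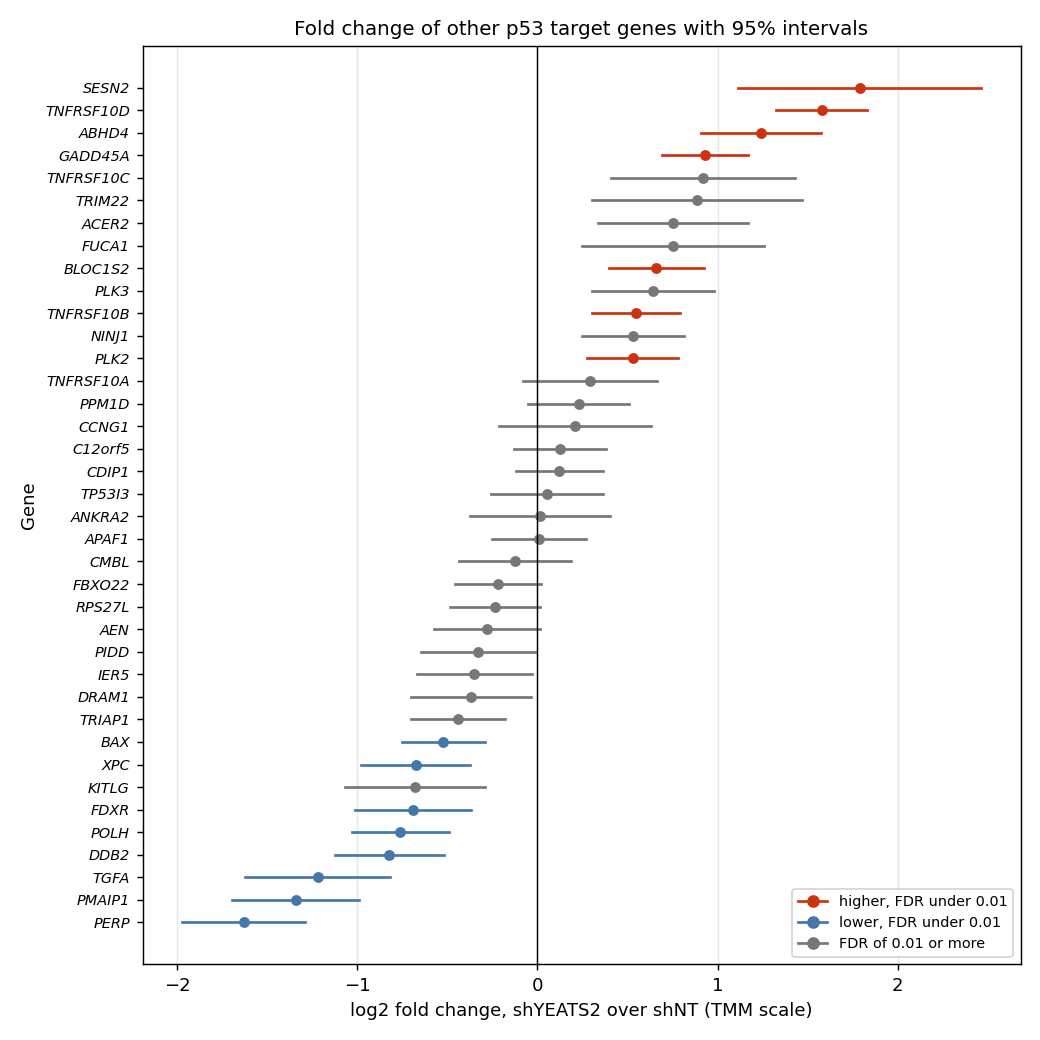
Log2 fold change of shYEATS2 over shNT for the 38 other p53 target genes tested, with 95% intervals, coloured by call. The 7 genes called higher range up to 1.79 for SESN2 and the 8 called lower down to -1.63 for PERP, and the 23 genes not called lie between SESN2 and PERP, some of them beyond called genes but with wider intervals.

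Genes that p53 is known to lower through p21 and the DREAM repressor complex were read as a further list of 20, all of which were tested. Of these, 18 fell and none rose, against 12.5% of all genes called lower, and the median log2 fold change was -1.26. With DESeq2, 0 genes of the list were called higher, and in the edgeR test 0 had a higher level at an unadjusted p under 0.05. The largest falls were in CDCA8 (-1.83), CDC20 (-1.62), BUB1 (-1.47), TOP2A (-1.43) and CDK1 (-1.41), with FDR values of at most 0.00114. CDK1 is the kinase that starts mitosis, CDC20 activates the anaphase-promoting complex, BUB1 and CDCA8 act at the centromere, and TOP2A untangles replicated chromosomes. CDC25A (-0.33, FDR 0.290), a phosphatase that activates cyclin-dependent kinases, was not called. These genes are markers of dividing cells in general. CDKN1A, the gene through which p53 acts on them, had a 95% interval that includes 0, as given above, and whether the falls were linked to it was not tested.

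**Figure D5:**
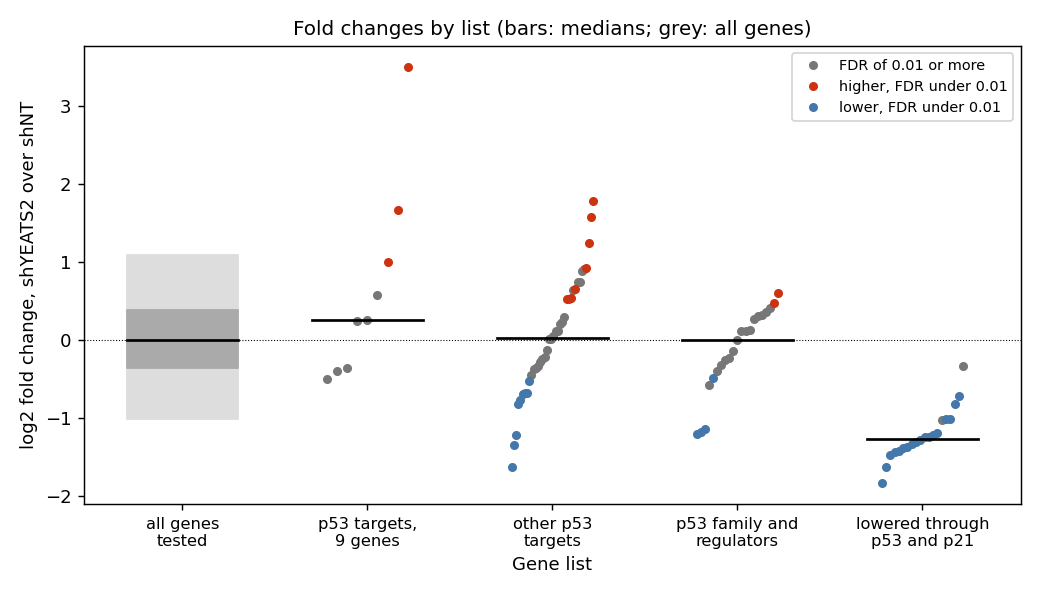
Log2 fold change of shYEATS2 over shNT for each gene of 4 lists (points, coloured by call) with list medians as black bars, beside all 12676 genes tested, for which the light band spans the 5th to 95th and the dark band the 25th to 75th percentile. The medians are 0.26 for the 9 p53 targets, 0.03 for the other targets, near 0 for the family and regulators, and -1.26 for the genes lowered through p53 and p21.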

How the data were processed

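According to the study's methods, the authors aligned reads with the unified mapper RUM (build hg19) and counted them with HTSeq at default settings. The submitters' processing notes list HTSeq 0.6.1p1 and TopHat2 2.0.10. The authors deposited raw read counts per gene, and each listed gene has at least 101 reads in some library. The log2 fold changes, p-values and FDR values of the authors' own comparison in the same table were not used. ChIP-seq samples were not analysed here.

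The filter kept genes that reached 10 reads in 2 or more libraries, which were all 12676, and they were tested with the quasi-likelihood method of edgeR 4.0.16 (R 4.3.3), with TMM scaling and no block. Standard errors were taken from the F statistic. Log2 fold changes had a median standard error of 0.12 at depths of 34718921 to 39417787 reads. Alternatives were DESeq2 1.42.0, the exact test of edgeR (exactTest), other scalings and filters, an FDR under 0.05, a replicate block and each library left out. Lengths and sites came from GENCODE v44 lifted to GRCh37, which matched 12465 genes (98.3%). The library kit in the labels does not mark strand, so antisense overlaps cannot be resolved. The default of HTSeq counts a single strand, and the study's methods name default parameters, which the counts themselves cannot show. The counts may therefore hold only part of the reads on each gene.

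Members, lists and tests were chosen with earlier results of these data known. The genes named are all members, YEATS2, the 5 largest called rises and falls of the wider target list and of the list of lowered genes, TP73, MDM4 and called regulators and factors, and the nearest profiles to CDKN1A. The search for p53 sites was added after values had been seen. Some named pairs and the genes of the factor list that were not called go beyond this rule. Results on some genes of the lists are not reported here.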

Additional observations from a re-analysis of the deposited data

How the results depend on the processing

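Of 126 values of the 9 p53 targets under 14 alternatives, 113 kept their direction and their side of the threshold, 12 gained a call, 1 lost it and none changed sign. The alternatives without a filter and with an FDR under 0.05 repeat the values of the reported fit, so these could not change direction. Without a filter the calls could not change either, because the filter had kept all genes. The lost call is that of GDF15 without shYEATS2 replicate 2. The number of members called lower, 0 in the reported test, was 1 with DESeq2 and 3 each with exactTest on the TMM scale, an FDR under 0.05 and a replicate block. With each library left out, 2 to 4 members were called higher and 0 lower, the log2 fold change of YEATS2 lay between -2.74 and -2.62, and 17 to 19 of the genes lowered through p53 and p21 were called lower and 0 higher. A lone library was assumed to vary like the other group. Among the other p53 targets the number called higher, 7, was 11 with DESeq2 and with total counts, 13 with exactTest on either scale, with an FDR under 0.05 and with the replicate block, and 4 to 8 with a library left out. The number called lower, 8, was 5 with total counts and 9 with DESeq2. It was 10 each with exactTest on the TMM scale, an FDR under 0.05 and the replicate block. Among the regulators the number called higher, 2, was 6 with exactTest on total counts and 0 to 3 with a library left out, and the number called lower, 4, was 2 to 5 with a library left out, 6 with DESeq2, with an FDR under 0.05 and with the replicate block, and 3 to 5 in the other fits. The cause of these shifts was not tested. Calls over all genes moved as well, from 1630 higher and 1581 lower in the reported test. DESeq2 gave 2159 and 2190, exactTest on the TMM scale 2596 and 2497, and exactTest on total counts 3464 and 1778. An FDR under 0.05 gave 3093 higher and 3011 lower, and the quasi-likelihood test on total counts gave 2363 and 1166. Same-numbered libraries deviated from their group means together (r = 0.40 across genes), but the labels do not say that a number marks a shared batch. With the replicate block, 2742 genes were called higher and 2715 lower, TP53INP1 joined the members called higher (log2 fold change 0.60, FDR 0.00242), and MDM2 (FDR 0.00452), FAS (FDR 0.00723) and RRM2B (FDR 0.00701) were called lower.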
